A study of Homo sapiens with 30 samples.

Results

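Deletion of MPC1 in THP-1 cells was followed by RNA sequencing of 6 of the 30 libraries of the study, 3 with the knockout (KO) and 3 with an empty vector (EV). THP-1 is a human monocytic acute myeloid leukemia (AML) line without the FLT3 internal tandem duplication that MV4-11 and Molm-14, the other lines of the knockout experiment, carry. Members were chosen by label: the 3 THP-1 KO libraries were compared with the 3 THP-1 EV libraries over all genes that passed an expression filter, 14490 of the 58051 listed. KO cells carried the lentiCRISPRv2 construct with Cas9, a GFP marker and 1 guide against MPC1. The control libraries are labelled EV, and a supplementary legend of the paper calls the THP-1 control cells WT. The paper does not describe the empty vector of the THP-1 EV cells or state that they were infected with a lentivirus. The sources do not say whether the KO cells were a pool or a clone, and the labels do not say whether libraries 1, 2 and 3 of a group were separate cultures. The p-values therefore measure only the spread between libraries, which may be technical. In the main comparison this spread was estimated over all 18 libraries of the knockout experiment, those of MV4-11 and Molm-14 included.

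MPC1 and its partner MPC2 form the carrier that brings pyruvate, the end product of glycolysis, across the inner mitochondrial membrane. Inside the mitochondrion pyruvate becomes acetyl-CoA or oxaloacetate, which feed the tricarboxylic acid (TCA) cycle and, through exported citrate, the synthesis of fatty acids and sterols. Cells that lack the carrier can fuel the cycle with glutamine and fatty acids instead, and the study used the deletion to lower oxidative phosphorylation (OXPHOS).

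The THP-1 libraries held 5339360 to 7520937 counts each, and levels are given as CPM, counts scaled to a common library total with a further factor for composition. Library 3 of each arm stood apart. Counts of library 3 differed from those of libraries 1 and 2 of its arm with a chi-square of 4.81 to 8.56 per degree of freedom, against 1.55 and 2.5 between libraries 1 and 2. The 2 libraries numbered 3 also had the lowest totals of their arms and the highest shares of counts from the mitochondrial genome, 0.351% in EV and 0.298% in KO against 0.198% to 0.246% in the other 4. Of 12 monocytic markers, CEBPA (395.3 to 463.3 CPM) and LYZ (673.5 to 996.9 CPM) were abundant and CD33 stood at 63.7 to 73.2 CPM. CD14 reached only 2.51 to 4.01 CPM, and CD68 had 17 counts over the 6 libraries. Of 10 erythroid, 10 megakaryocyte, 10 B cell, 11 T and NK cell and 10 epithelial and fibroblast markers, 7, 3, 1, 3 and 2 had no count in any library, among them the globin genes, GATA1, PF4, CD3D, CD2 and EPCAM. The exceptions with the highest levels were EPOR, NKG7 and CD4, the last of which monocytic cells also express. Without the composition factor, the summed level of the erythroid list was 3.09 to 5.66 CPM in KO and 3.18 to 5.19 CPM in EV, that of the megakaryocyte list 2.72 to 5.31 and 2.26 to 3.44 CPM, and that of the B cell list 6.21 to 9.09 and 7.58 to 10.9 CPM. The T and NK cell list summed to 70.1 to 96 CPM in KO and 68.6 to 82.2 CPM in EV, and the epithelial and fibroblast list to 1.82 to 3.26 and 1.69 to 2.39 CPM.

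To ask which genes responded to the deletion, KO was compared with EV with edgeR. A gene was called where its adjusted p, the false discovery rate (FDR), lay under 5%. In this fit 13 genes were called, which is 0.0897% of the genes tested. There were 8 called higher (0.0552%) and 5 called lower (0.0345%). The genes that fell were ARRDC4, MPC1, TXNIP, CPT1A and BMP8B, and those that rose were SERPINB10, SAMSN1, S100A8, FADS2, DHCR7, ACAT2, IMPDH2 and SCD. All 13 separated the KO from the EV libraries without overlap in CPM, as 13.6% of all genes tested did. An unadjusted p under 0.05 was reached by 1160 genes (8.01%), 670 higher and 490 lower, and the median log2 fold change of all genes tested was 0.0034. In these bulk libraries, fewer cells that express a gene and less RNA per cell cannot be told apart.

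In THP-1, deviations of same-numbered KO and EV libraries from their group means went together most clearly in library 3. The correlations were 0.385, 0.301 and 0.619 for libraries 1, 2 and 3, and EV library 2 reached 0.39 with KO library 1. The number did not pair libraries in this way in the other lines. There the correlations were 0.008, −0.576 and 0.235 in MV4-11 and −0.129, −0.263 and 0.32 in Molm-14. When the number was fitted as a replicate block in the 18 libraries of the knockout experiment, 15 genes were called (0.104%), 9 higher (0.0621%) and 6 lower (0.0414%), which were the same 13 with BEX1 and CMYA5 added. In the 6 THP-1 libraries alone 4 genes were called (0.0303%), 1 higher (0.00758%) and 3 lower (0.0228%), and with the block 999 of 13184 (7.58%), 490 higher (3.72%) and 509 lower (3.86%). The coefficient of variation between libraries that the fit estimated was 9.06% over the 18 libraries without the block and 8.2% with it. Within the 6 THP-1 libraries it was 9.37% without the block and 4.23% with it. The block in the 6 libraries left only 2 residual degrees of freedom, against 12 in the main fit, so its FDR values rest on little information. Counts from the 6-library block are given below beside those of the 18-library fit.

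**Figure D1:**
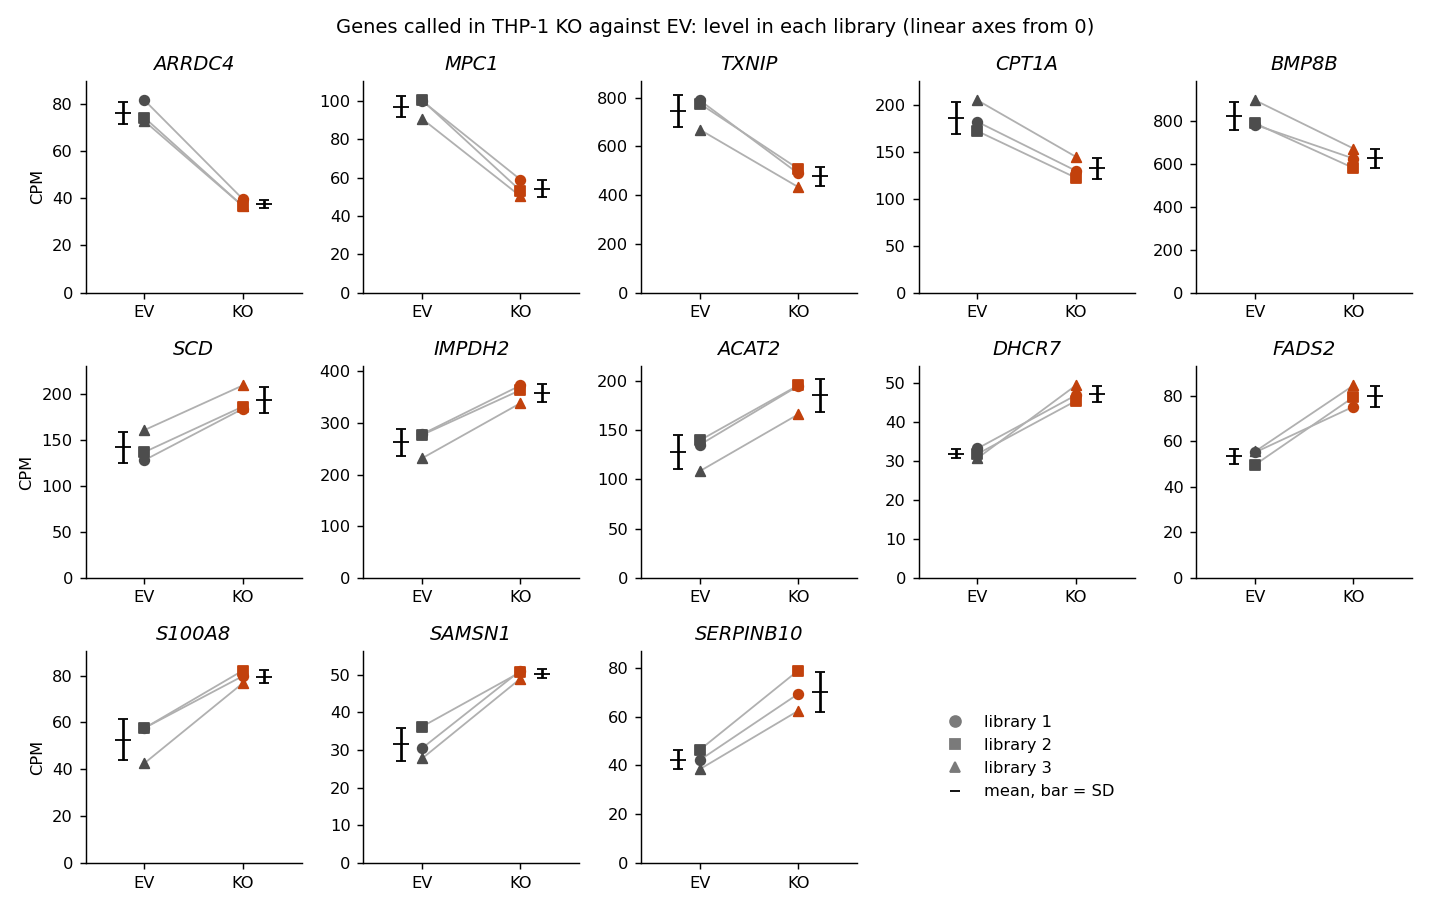
Level in CPM (y axes, linear, from 0) of the 13 called genes in each THP-1 library, with EV in grey and KO in orange. Grey lines join libraries with the same number, and black marks give the mean ± SD of 3 libraries. The KO libraries lie below the EV libraries in the 5 genes from ARRDC4 to BMP8B and above them in the other 8.

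The targeted gene checks the labels. MPC1 (ENSG00000060762, chromosome 6, 166364919 to 166383013, minus strand, GRCh38) stood at 100, 100.3 and 90.6 CPM in EV and 58.9, 53.2 and 50.3 CPM in KO. Every KO library was below every EV library, and the KO mean was 55.8% of the EV mean. The log2 fold change (KO minus EV, also called the log2 KO effect) was −0.84 (SE 0.091, edgeR FDR 6.32e-06), and transcript of the gene thus remained in the KO libraries. The guide's cut site and the reading frame of the remaining transcript were not analysed here. MPC2, the other subunit, stood at 86.0, 87.8 and 75.6 CPM in EV and 95.6, 91.8 and 92 CPM in KO, which did not overlap, and it shares exon sequence with DCAF6 on the opposite strand. Its log2 fold change of 0.16 (SE 0.093) missed the threshold (edgeR FDR 0.678, and 0.158 with the block in the 6 libraries).

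Of the 20 genes tested around the carrier and the entry of pyruvate, MPC1 was the only gene called, and the median log2 fold change was 0.05. PDK4, a kinase that switches off pyruvate dehydrogenase, had 26, 23 and 17 counts in EV and 9, 8 and 5 in KO. The counts did not overlap, with a log2 fold change of −1.53 (SE 0.36), an edgeR FDR of 0.181, and 0.00363 with the block in the 6 libraries. PC, which carboxylates pyruvate to oxaloacetate inside mitochondria, was also rare, at 5.59, 3.74 and 5.98 CPM in EV and 7.10, 6.38 and 7.88 CPM in KO. These values did not overlap either, and the log2 fold change was 0.48 (SE 0.2, edgeR FDR 0.545, and 0.154 with the block in the 6 libraries).

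The largest fall among the called genes was in ARRDC4, and TXNIP fell as well. Both encode alpha-arrestins. TXNIP binds thioredoxin and lowers glucose uptake by driving glucose transporters into the cell, and ARRDC4 shares this action on glucose transport. The genes of both are known targets of MondoA and ChREBP, transcription factors that sense glucose 6-phosphate and bind, with their partner MLX, a pair of E-boxes 5 bases apart. The promoters of the 2 genes are shown because they were the strongest called genes beside MPC1. The RefSeq sequences (GRCh38.p14) run from 250 bases before to 50 bases after the gene start, 5′ to 3′ on the gene's strand, and capitals mark the E-box matches.
TXNIP promoter: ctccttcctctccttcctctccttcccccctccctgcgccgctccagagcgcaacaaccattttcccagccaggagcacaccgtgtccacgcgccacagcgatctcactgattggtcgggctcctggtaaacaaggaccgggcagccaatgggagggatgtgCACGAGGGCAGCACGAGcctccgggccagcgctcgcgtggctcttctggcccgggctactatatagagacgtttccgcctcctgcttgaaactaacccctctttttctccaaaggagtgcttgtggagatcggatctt
ARRDC4 promoter: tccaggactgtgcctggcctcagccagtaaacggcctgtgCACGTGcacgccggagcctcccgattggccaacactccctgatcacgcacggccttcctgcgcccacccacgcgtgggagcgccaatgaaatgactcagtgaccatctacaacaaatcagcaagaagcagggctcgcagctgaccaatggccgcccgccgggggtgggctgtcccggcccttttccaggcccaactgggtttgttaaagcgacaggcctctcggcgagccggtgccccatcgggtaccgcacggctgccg

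The TXNIP promoter lies at chr1:145996530-145996829 on the minus strand and holds, at bases 163 to 179 of the 300, 2 copies of CACGNG with 5 free bases between them, the paired E-box with 1 base free in each. Such a match, on either strand, stands in 20 of 35116 RefSeq promoters (0.057%). The ARRDC4 promoter lies at chr15:97960453-97960752 on the plus strand and holds the E-box CACGTG at bases 41 to 46, as 7.26% of all promoters do on either strand. It held no match to the paired E-box. Of the other called genes, 8 had a promoter in the table, and none of these held either match. A match is a description of the sequence, and binding was not measured.

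ARRDC4 (ENSG00000140450, chromosome 15, 97960703 to 97973833, plus strand) stood at 81.5, 74.2 and 72.7 CPM in EV and 39.6, 36.7 and 36.7 CPM in KO. The KO libraries lay close together at 49.5% of the EV mean, with a log2 KO effect of −1.02 (SE 0.093, edgeR FDR 4.25e-07). TXNIP (ENSG00000265972, chromosome 1, 145992435 to 145996579, minus strand) stood at 789.4, 775.5 and 669 CPM in EV and 489.2, 508.5 and 433.5 CPM in KO. Each KO library was well below the lowest EV library, and the log2 fold change was −0.64 (SE 0.08, edgeR FDR 6.67e-05). Per kilobase of annotated exon the EV level of TXNIP was 206.6 CPM and that of ARRDC4 18.7 CPM, so the change was larger in the gene with the lower level. Log2 differences between libraries of the same number were −1.03, −1.01 and −0.98 for ARRDC4 and −0.69, −0.61 and −0.63 for TXNIP.

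ARRDC3, an alpha-arrestin that acts on beta-adrenergic receptors, lay on the other side of 0. It stood at 113.6, 124.8 and 81.4 CPM in EV and 148.9, 164.1 and 119.5 CPM in KO, so that 1 KO library lay within the EV range. Its log2 fold change was 0.43 (SE 0.14, edgeR FDR 0.389, and 4.9e-06 with the block in the 6 libraries). Of the 15 genes tested in the MondoA and ChREBP network, which adds the factors themselves, their MAX and MXD relatives and other targets, ARRDC4 and TXNIP were the only called genes. The median of the list was −0.03, with 7 members above 0 and 8 below.

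Sterol synthesis genes were higher in KO in all but 1 of the members tested, though few passed the test. This pathway turns acetyl-CoA into cholesterol, and its genes are under the control of SREBP2. Of 24 members tested, 2 were called higher and none lower, and 23 had a log2 fold change above 0, with a median of 0.19. KO and EV libraries did not overlap in 12 members, all higher in KO, beside 6.8% of all genes tested. With the block in the 6 libraries, 11 of 24 were called higher, beside 3.72% of all genes. Over its members, mean log2 CPM was higher in KO than in EV of the same number by 0.191, 0.244 and 0.224.

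ACAT2 (ENSG00000120437), which joins acetyl-CoA units at the first step, stood at 135.3, 139.8 and 108.5 CPM in EV and 195.1, 195.7 and 166.2 CPM in KO. The KO mean was 145% of the EV mean, a log2 KO effect of 0.54 (SE 0.1, edgeR FDR 0.0328). ACAT2 shares exons with SOD2 and TCP1 on the opposite strand, and the sources do not state if strand was used in counting. DHCR7 (ENSG00000172893), the enzyme of the last step to cholesterol, stood at 33.1, 31.7 and 30.6 CPM in EV and 46.7, 45.3 and 49.3 CPM in KO. Both groups were tight and far apart, with a log2 KO effect of 0.56 (SE 0.11, edgeR FDR 0.0328). The other members with the smallest p in the list were TM7SF2, a sterol reductase at 9.12 to 11.4 CPM in EV and 14.3 to 16.1 CPM in KO, and MSMO1, a demethylase. Their log2 fold changes of 0.58 (SE 0.17) and 0.35 (SE 0.1) missed the threshold (edgeR FDR 0.33 and 0.356), and passed with the block in the 6 libraries (edgeR FDR 0.00948 and 1.8e-04). TM7SF2 shares exon sequence with VPS51 on the same strand. Of 18 members with a promoter in the table, 1 held TCACNCCAC, a match to a sterol element, as did 1.13% of all promoters.

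**Figure D2:**
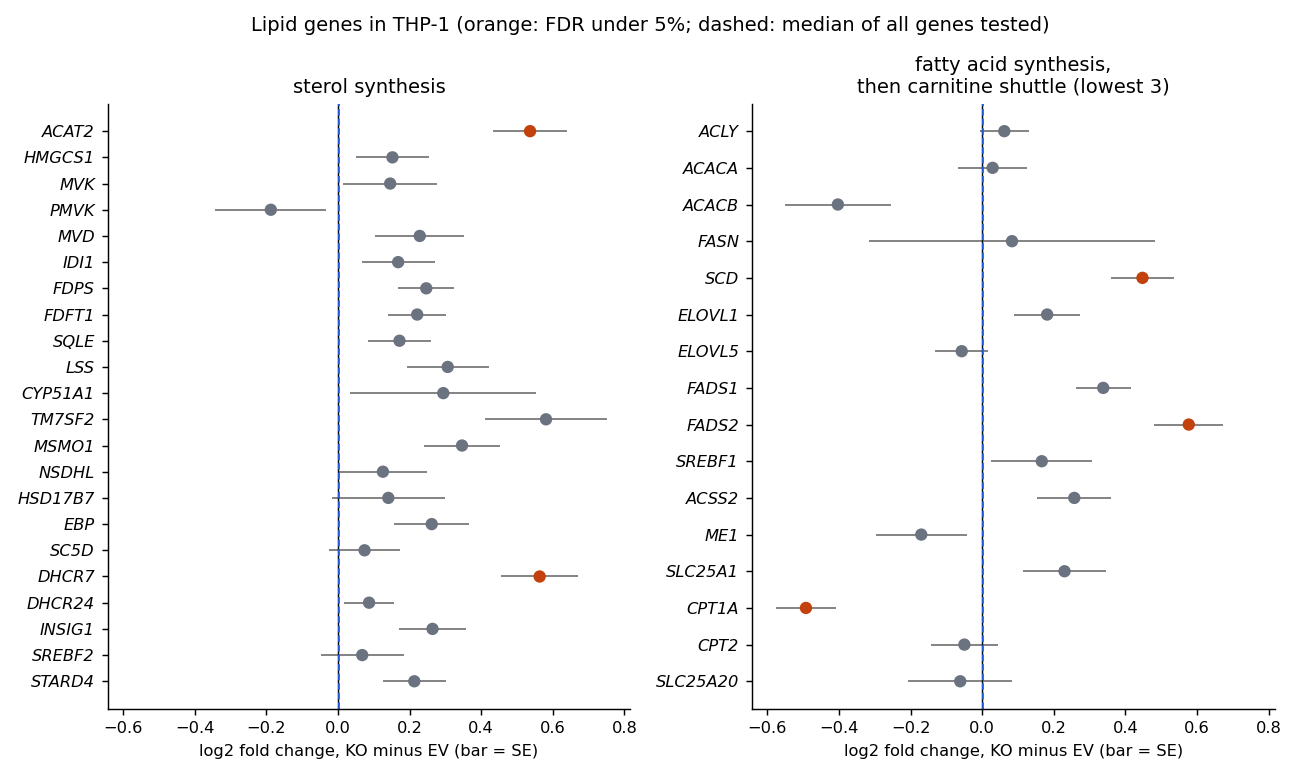
Log2 fold change (x axis, KO minus EV, bars = SE) of sterol synthesis genes (left) and of fatty acid synthesis genes followed by 3 genes of the carnitine shuttle (right), in pathway order, for the members above 1 CPM in EV that are reported singly. Called genes are orange. The sterol genes plotted, other than PMVK, lie to the right of 0, and CPT1A lies at −0.49.

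The desaturase genes SCD and FADS2 also rose. Of 14 fatty acid synthesis genes tested, 2 were called higher and none lower, and the median was 0.12. SCD (ENSG00000099194), which makes monounsaturated from saturated fatty acids, stood at 128.3, 137.1 and 161.1 CPM in EV and 184.3, 186.7 and 209.8 CPM in KO. Library 3 was the highest of both arms, and the groups did not overlap (log2 fold change 0.45, SE 0.088, edgeR FDR 0.039). FADS2 (ENSG00000134824), the desaturase that starts the synthesis of polyunsaturated fatty acids, stood at 55.1, 49.6 and 55.4 CPM in EV and 75.1, 79.3 and 84.4 CPM in KO. It reached 149% of the EV mean, with a log2 KO effect of 0.58 (SE 0.097, edgeR FDR 0.00869). FADS1, its neighbor on the opposite strand and the next desaturase of the pathway, stood at 149.7, 151.9 and 148.8 CPM in EV and 191.9, 197.5 and 179.8 CPM in KO. These values did not overlap, but the log2 fold change of 0.34 (SE 0.076) missed the threshold (edgeR FDR 0.136, and 6.29e-05 with the block in the 6 libraries). FADS2 and FADS1 share exon sequence on opposite strands, so that reads of 1 could be counted for the other if the strand was not used. FADS2 also shares exon sequence with FEN1 on the same strand. The enzymes that make palmitate gave log2 fold changes of 0.06 for ACLY, 0.03 for ACACA and 0.08 for FASN. ACACB, the mitochondrial acetyl-CoA carboxylase whose product inhibits CPT1A, stood at 31.6, 34.5 and 44.8 CPM in EV and 23.1, 26.1 and 34.4 CPM in KO. Its groups overlapped, but each KO library was below the EV library of its number (log2 fold change −0.4, SE 0.15, edgeR FDR 0.499, and 0.00384 with the block in the 6 libraries).

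The gate of fatty acid oxidation fell. CPT1A (ENSG00000110090) couples long-chain fatty acids to carnitine for entry into mitochondria. It stood at 182.1, 172.2 and 205.1 CPM in EV and 130, 122.5 and 144.9 CPM in KO, with log2 differences of −0.48, −0.49 and −0.5 between libraries of the same number. The KO mean was 71% of the EV mean, a log2 KO effect of −0.49 (SE 0.085, edgeR FDR 0.00947). CPT1A was the only gene called of the 21 tested in the carnitine shuttle and fatty acid oxidation, and the list had a median of 0.02. CPT2 and SLC25A20, which act after CPT1A in the shuttle, had log2 fold changes of −0.05 and −0.06.

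Each of these 5 lipid genes lost its call in some fit that left out 1 library of the 6, although the direction held in all of them. FADS2 was called in 4 of 6 such fits (edgeR FDR up to 0.0907, without EV library 2, and 0.0644 without KO library 2). CPT1A was called in 3 of 6 (edgeR FDR 0.112 without KO library 1, 0.208 without KO library 2 and 0.113 without EV library 3). ACAT2 was called only without EV library 2 or KO library 3 (edgeR FDR up to 0.318, without KO library 1). SCD was called only without EV library 3 (edgeR FDR up to 0.283, without EV library 2), and DHCR7 in none (edgeR FDR up to 0.22, without EV library 3). Without both libraries numbered 3, CPT1A and SCD were called (edgeR FDR 0.0333 in both) and FADS2, ACAT2 and DHCR7 had an edgeR FDR of 0.0979, 0.106 and 0.397. DESeq2 called all 5.

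Of the other rises, SERPINB10 was in the primary granule list, S100A8 in the S100 list and SAMSN1 in no list. SERPINB10 (ENSG00000242550), a serpin known as bomapin and found in myeloid cells, stood at 42.2, 46.4 and 38.4 CPM in EV and 69.3, 78.8 and 62.3 CPM in KO. It reached 166% of the EV mean, the largest rise among the called genes, with a log2 KO effect of 0.73 (SE 0.12, edgeR FDR 0.00869). S100A8 (ENSG00000143546), a subunit of calprotectin, an inflammatory protein of monocytes and neutrophils, stood at 57.6, 57.6 and 42.6 CPM in EV and 79.8, 82.1 and 76.7 CPM in KO. Its log2 fold change of 0.59 (SE 0.12) was just inside the threshold (edgeR FDR 0.0495). SAMSN1 (ENSG00000155307), an adaptor protein of blood cells, stood at 30.5, 36.2 and 27.7 CPM in EV and 51.1, 50.6 and 48.9 CPM in KO. The KO values were nearly equal, and the log2 fold change was 0.67 (SE 0.13, edgeR FDR 0.039). SAMSN1 shares exon sequence with the antisense transcript SAMSN1-AS1, and SERPINB10 with ENSG00000289724 on the same strand. With 1 library left out in turn, SERPINB10 was called only without EV library 2 or KO library 3, SAMSN1 only without EV library 2, and S100A8 in no fit. Their edgeR FDR was at most 0.208 (without KO library 2), 0.309 and 0.423 (both without EV library 3). Without both libraries numbered 3 it was 0.0554, 0.397 and 0.486 in SERPINB10, SAMSN1 and S100A8.

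The partner of S100A8 in calprotectin, S100A9, stood at 222.9, 208.6 and 184.1 CPM in EV and 271, 271.2 and 237.8 CPM in KO. The groups did not overlap, but its log2 fold change of 0.34 (SE 0.12) missed the threshold (edgeR FDR 0.499, and 1.86e-05 with the block in the 6 libraries). Of the 8 S100 genes tested, S100A8 was the only gene called, 7 had a fold change above 0, and the median was 0.13. Primary granule proteins are the proteases and antimicrobial proteins that myeloid precursors store. Of 14 genes tested in this list, SERPINB10 was the only gene called, and the median was 0.18. SERPINB10 is a serpin and not itself one of these stored proteases or antimicrobial proteins, none of which was called. CTSG, the granule protease cathepsin G, was the most abundant, at 2649, 2477 and 2433 CPM in EV and 3406, 3066 and 3182 CPM in KO (log2 fold change 0.35, SE 0.093, edgeR FDR 0.215, and 1.72e-07 with the block in the 6 libraries). LYZ, the lysozyme gene, stood at 867.1, 829 and 673.5 CPM in EV and 996.9, 986.2 and 865.9 CPM in KO, with 1 KO library just within the EV range. Its log2 fold change was 0.27 (SE 0.1, edgeR FDR 0.541, and 7.27e-05 with the block in the 6 libraries). Other granule genes lay below 0 (ELANE −0.13, AZU1 −0.19 and MPO −0.37), so that the list held differences of both signs.

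Maturation markers of monocytes lay on both sides of 0. Of 21 tested, none was called, 10 lay above 0 and 11 below, and the median was −0.003. CD33, CD14, ITGAM and CSF1R had log2 fold changes of 0.02, −0.003, −0.12 and −0.1. TLR4, the receptor for lipopolysaccharide, stood at 62.1, 66.4 and 62.9 CPM in EV and 79.1, 78.3 and 71.7 CPM in KO (log2 fold change 0.26, SE 0.1, edgeR FDR 0.541, and 0.02 with the block in the 6 libraries). EGR1, an immediate early transcription factor of monocytic differentiation, had 17, 13 and 16 counts in EV and 2, 7 and 5 in KO. Its counts did not overlap but were few (log2 fold change −1.66, SE 0.41, edgeR FDR 0.181, and 0.0118 with the block in the 6 libraries).

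The remaining calls were in no common list. IMPDH2 (ENSG00000178035), the rate-limiting enzyme of guanine nucleotide synthesis, stood at 278.5, 277 and 231.8 CPM in EV and 373, 364 and 338.6 CPM in KO. Every KO library was above every EV library (log2 fold change 0.45, SE 0.089, edgeR FDR 0.039). IMPDH2 shares exon sequence with ENSG00000290315 on the same strand and with ENSG00000272434 on the opposite strand. BMP8B (ENSG00000116985), a growth factor of the bone morphogenetic protein family, stood at 783.5, 790.1 and 898 CPM in EV and 625.9, 581.7 and 672.7 CPM in KO. It fell to 76.1% of the EV mean (log2 fold change −0.39, SE 0.081, edgeR FDR 0.0495). BMP8B has a close paralog, BMP8A, and shares exon sequence with PPIE on the opposite strand, so its level is uncertain. With 1 library left out in turn, both were called only without KO library 3 (edgeR FDR up to 0.364 for IMPDH2, without KO library 1, and 0.533 for BMP8B, without KO library 2). Without both libraries numbered 3, the edgeR FDR was 0.304 for IMPDH2 and 0.236 for BMP8B. The genes that the 18-library block added to the 13 were BEX1, a small adaptor protein, and CMYA5, a muscle-related cytoskeletal protein. BEX1 stood at 35.9, 35 and 25.9 CPM in EV and 50.6, 52.3 and 46.1 CPM in KO (log2 fold change 0.61, edgeR FDR 0.0654, and 0.0378 with the block). CMYA5 stood at 107.2, 118 and 147.7 CPM in EV and 82.7, 84.6 and 102.5 CPM in KO, a log2 fold change of −0.46 (edgeR FDR 0.162, and 0.0146 with the block). Neither gene overlapped between the groups, and library 3 was the lowest of both arms in BEX1 and the highest of both arms in CMYA5.

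Genes of the amino acid stress response lay mostly above EV. ATF4 is a transcription factor that is translated when amino acids are short or mitochondria are stressed, and its targets include enzymes of serine and glycine synthesis. None of 27 members tested was called, 21 had a log2 fold change above 0, and the median was 0.17. An unadjusted p under 0.05 was reached by 10 members that were higher and 2 that were lower, where 4.62% and 3.38% of all genes reached it. ATF4 itself stood at 186.3, 179.1 and 154.7 CPM in EV and 231.7, 215.2 and 200.9 CPM in KO (log2 fold change 0.32, SE 0.094, edgeR FDR 0.349). TRIB3, a pseudokinase and feedback inhibitor of the response, stood at 56.8, 55.2 and 54.4 CPM in EV and 75, 80.8 and 66 CPM in KO, with no overlap (log2 fold change 0.42, SE 0.095, edgeR FDR 0.143). DDIT3, the stress factor CHOP, had 35.2 to 47.7 CPM in EV and 53.1 to 55.4 CPM in KO, and SHMT2, the mitochondrial serine hydroxymethyltransferase, 142.6 to 186.6 and 205.2 to 214.4 CPM. Their log2 fold changes were 0.43 and 0.35 (edgeR FDR 0.229 and 0.33), and both share exon sequence with genes on the opposite strand. SLC7A11, the cystine importer, lay below EV, at 114, 122.7 and 118.3 CPM in EV and 104.9, 98.3 and 88.3 CPM in KO (log2 fold change −0.28, SE 0.085, edgeR FDR 0.354). With the block in the 6 libraries, 8 of 26 members were called higher and 2 lower, beside 3.72% and 3.86% of all genes, with ATF4, TRIB3, DDIT3, SHMT2 and SLC7A11 among them (edgeR FDR 7.27e-05 to 0.00254).

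**Figure D3:**
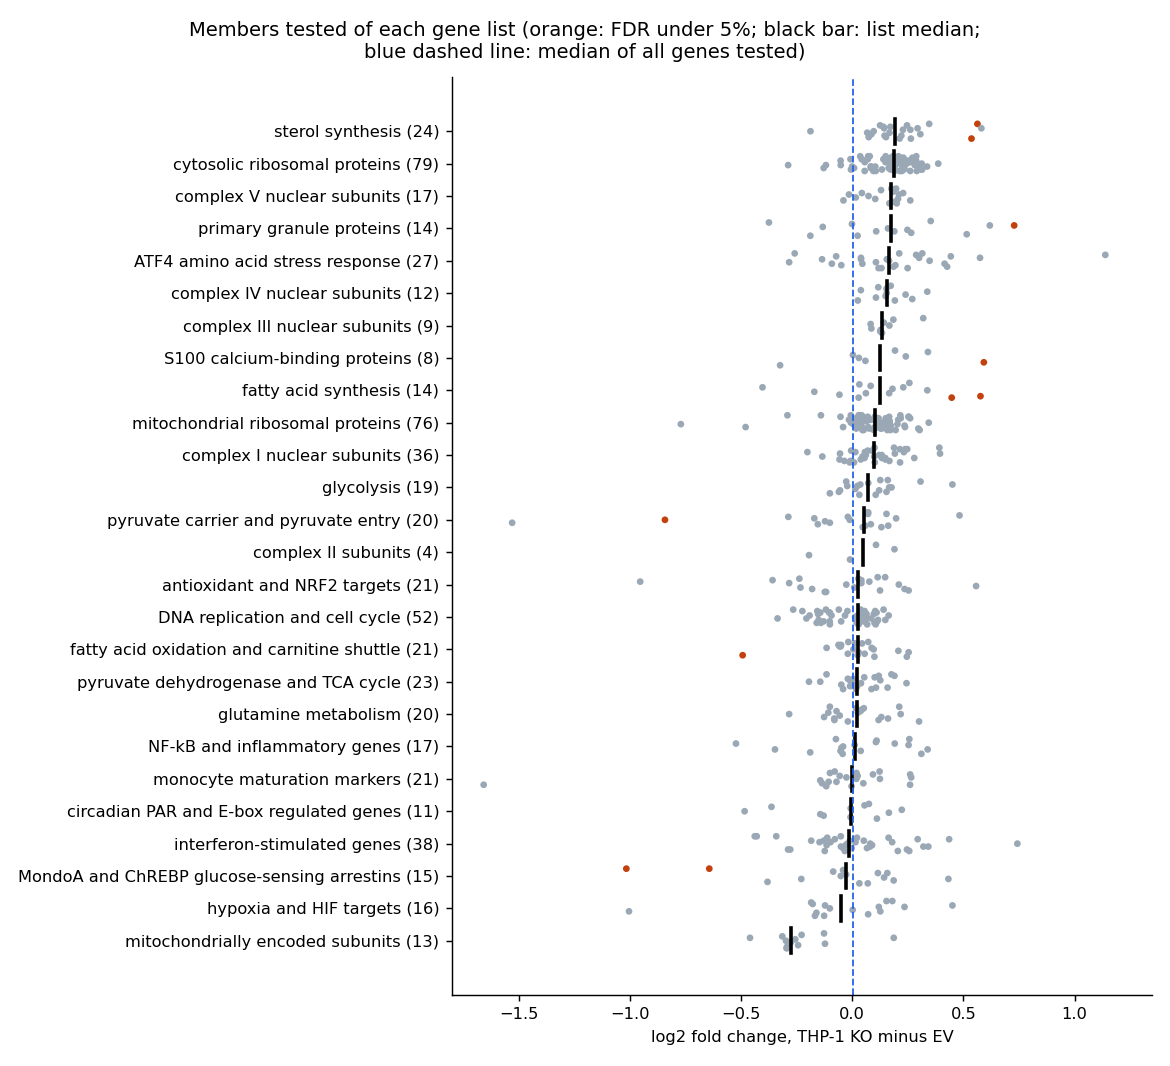
Log2 fold change (x axis, KO minus EV) of each gene tested in 26 lists (y axis, number tested in parentheses). Orange points are called genes, black bars are list medians, and the dashed line is the median of all genes tested, 0.0034. The medians of sterol synthesis (0.19) and of the mitochondrially encoded subunits (−0.28) lie at opposite ends.

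Genes of OXPHOS and of the ribosome showed small shifts in which no member was called. The nuclear genome encodes most subunits of the respiratory complexes, and the mitochondrial genome encodes 13 core subunits. Among nuclear subunits the median log2 fold change was 0.1 for complex I (28 of 36 above 0), 0.05 for complex II (2 of 4), 0.13 for complex III (9 of 9), 0.15 for complex IV (12 of 12) and 0.18 for complex V (15 of 17). With the block in the 6 libraries, 5, 1, 2, 4 and 6 of these were called higher and none lower, beside 3.72% and 3.86% of all genes. The members with the smallest p included NDUFA12 at 48.7 to 67.6 CPM in EV and 70.9 to 90.1 CPM in KO (log2 fold change 0.39, edgeR FDR 0.385). COX6B1 stood at 124.8 to 151.9 and 172.8 to 177.8 CPM (log2 fold change 0.34, edgeR FDR 0.385), and UQCRB and ATP5MC1 had log2 fold changes of 0.32 and 0.26 (edgeR FDR 0.538 and 0.554). All 4 passed with the block in the 6 libraries (edgeR FDR 3.01e-05 to 0.0186).

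Subunits encoded by the mitochondrial genome lay on the other side. Of 13 tested, 12 had a log2 fold change below 0, and the median was −0.28. MT-ND4 stood at 144.8, 174.8 and 255.1 CPM in EV and 132.8, 152.2 and 175.9 CPM in KO, so that the groups overlapped and library 3 was the highest of both arms. Its log2 fold change was −0.31 (SE 0.22, edgeR FDR 0.752, and 0.00173 with the block in the 6 libraries). MT-ND2 stood at 37.9, 41.6 and 42 CPM in EV and 31.8, 31.5 and 35.5 CPM in KO, with no overlap (log2 fold change −0.3, SE 0.22, edgeR FDR 0.766, and 0.0265 with the block in the 6 libraries). Averaged over the members, KO minus EV of the same number was −0.122, −0.208 and −0.301 on the log2 CPM scale in pairs 1, 2 and 3. Without both libraries numbered 3 the list median was −0.16, and over the alternatives run it was between −0.37 and −0.05.

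Cytosolic ribosomal proteins had a median of 0.19, and 71 of 79 lay above 0. In 26 members KO and EV did not overlap, all higher in KO, beside 6.8% of all genes. With the block in the 6 libraries 51 were called higher, beside 3.72% of all genes, and none lower. RPS14 stood at 891, 808.8 and 790.6 CPM in EV and 1038, 1074 and 981.3 CPM in KO (log2 fold change 0.31, SE 0.1, edgeR FDR 0.389, and 8.4e-06 with the block in the 6 libraries). RPL39, RPL37 and RPL4 had log2 fold changes of 0.34, 0.28 and 0.29 (edgeR FDR 0.389 to 0.442). Reads of these genes can be shared with many processed pseudogenes, so single levels are uncertain. Of 76 mitochondrial ribosomal proteins, 65 lay above 0 with a median of 0.1, led by MRPL16 at 58 to 67.6 CPM in EV and 75.7 to 87.9 CPM in KO (log2 fold change 0.34, edgeR FDR 0.321, and 0.00145 with the block in the 6 libraries).

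The size of these shifts can be set beside a trend with exon length over all genes. Exon length here joins the annotated exons of all transcripts of a gene, so it can exceed the length of the transcript present. It was 8040 bases for RPL37 and 12600 bases for UQCRB, so the place of a list on this trend is approximate. The median log2 fold change was 0.055 in the quartile of genes with the shortest annotated exons, under 2944 bases, then 0.034 and −0.004, and −0.053 in the quartile with the longest, above 7865 bases. The median exon length was 3228 bases in the cytosolic ribosomal list, 1946 to 3138 bases in the nuclear OXPHOS lists and 784 bases in the mitochondrially encoded list, whose median lay against this trend. Its part in the list medians was not tested. The share of counts from long noncoding RNAs was 1.49%, 1.57% and 1.9% in EV and 1.44%, 1.5% and 1.68% in KO, and the highest shares were in the libraries numbered 3. Pair 3 gave the largest difference in each list plotted.

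**Figure D4:**
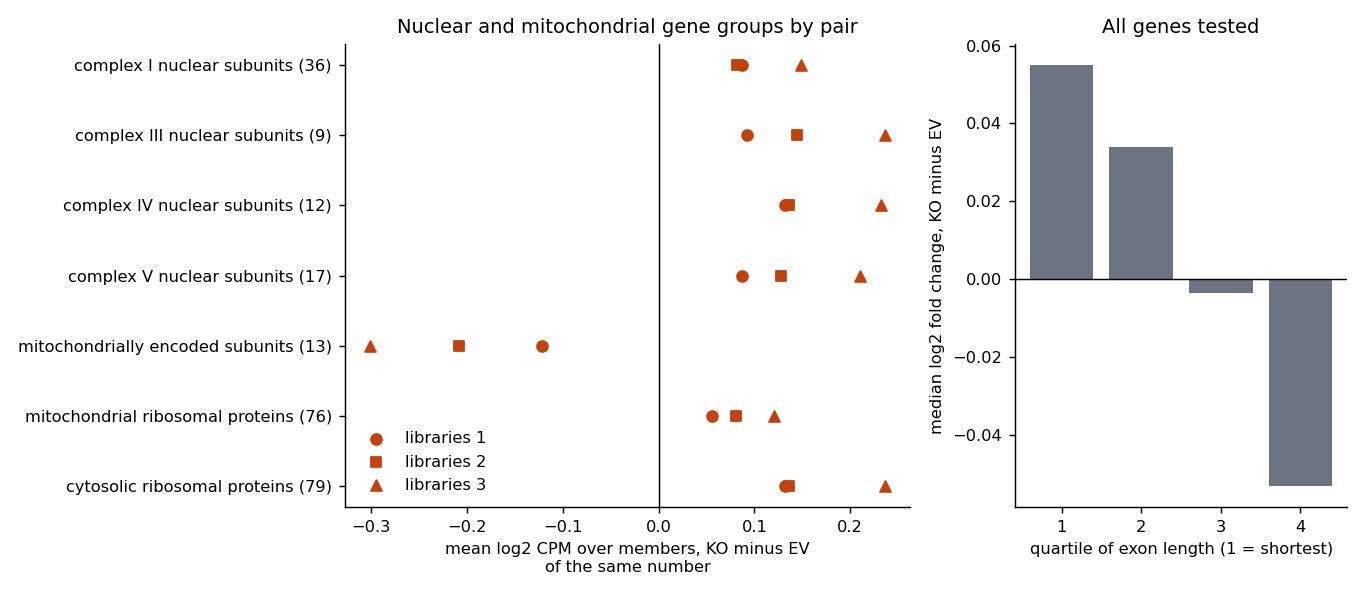
Left, mean log2 CPM over the members of 7 lists, KO minus EV of the same number (x axis), with a symbol for each of the 3 pairs. Right, median log2 fold change of all genes tested in quartiles of annotated exon length. Mitochondrially encoded subunits are the only list of the 7 below 0, and the length quartiles run from 0.055 to −0.053.

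Other pathways that use pyruvate or replace it held no called gene. The medians of the TCA cycle and glutamine lists lay near that of all genes, and that of glycolysis lay somewhat above it. Glycolysis had a median of 0.07 over 19 genes, with 14 above 0 (73.7%, beside 50.7% of all genes). Its mean log2 CPM was higher in KO than in EV of the same number by 0.083, 0.074 and 0.121. KO and EV did not overlap in 4 members, all higher in KO, beside 6.8% of all genes. Its most abundant member named, GAPDH, stood at 1107 to 1212 CPM in EV and 1245 to 1334 CPM in KO (log2 fold change 0.16, SE 0.087, edgeR FDR 0.665, and 0.013 with the block in the 6 libraries). ALDOC, an aldolase at 3.62 to 4.63 CPM in EV, had a log2 fold change of 0.45 (edgeR FDR 0.633). Pyruvate dehydrogenase and the TCA cycle had a median of 0.02 over 23 genes. MDH1, the cytosolic malate dehydrogenase placed in this list, had the smallest p (log2 fold change 0.24, edgeR FDR 0.485, and 4.29e-04 with the block in the 6 libraries). Glutamine metabolism had a median of 0.02 over 20 genes, where GLUL, which makes glutamine, stood at 537.1 to 626.9 CPM in EV and 643.6 to 724.7 CPM in KO (log2 fold change 0.22, edgeR FDR 0.541, and 0.00102 with the block in the 6 libraries).

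The lists of stress, inflammation and growth also held no called gene, and their medians lay near that of all genes. The medians were 0.03 for 21 antioxidant and NRF2 targets, −0.05 for 16 hypoxia targets, 0.01 for 17 NF-kB and inflammatory genes, −0.02 for 38 interferon-stimulated genes, −0.01 for 11 circadian genes and 0.03 for 52 genes of DNA replication and the cell cycle. The hypoxia list included EGLN1, an oxygen sensor (log2 fold change −0.16, edgeR FDR 0.576, and 0.0267 with the block in the 6 libraries). GSR, glutathione reductase, stood at 124.5, 113.5 and 108 CPM in EV and 93.5, 91.3 and 85.3 CPM in KO, without overlap (log2 fold change −0.36, SE 0.086, edgeR FDR 0.181, and 1.41e-04 with the block in the 6 libraries). TXN, the thioredoxin that TXNIP binds, had a log2 KO effect of 0.25 (SE 0.092, edgeR FDR 0.499, and 7.81e-04 with the block in the 6 libraries). In the interferon list MX2 and UBA7 had 32.4 to 36.6 and 83.9 to 109.3 CPM in EV and 44.2 to 49.7 and 117.9 to 124.3 CPM in KO (log2 fold changes 0.44 and 0.32, edgeR FDR 0.278 and 0.385). With the block in the 6 libraries 5 of 38 interferon genes were called higher and none lower. In that fit 1 of 52 cell cycle genes was called higher and 5 lower, and of 19 antioxidant and NRF2 targets 4 higher and 4 lower. Of all genes 3.72% were called higher and 3.86% lower. In the main fit an unadjusted p under 0.05 was reached by 3 of 21 antioxidant and NRF2 targets that were higher and 5 that were lower, beside 4.62% and 3.38% of all genes. CCL5, a chemokine, and GINS1, a replication factor, had the smallest p of their lists (log2 fold changes 0.34 and −0.21, edgeR FDR 0.458 and 0.557).

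To ask where THP-1 differed from the other lines, its KO effect was compared with that of MV4-11 and of Molm-14, each against its own EV libraries. A different effect was called in 28 genes against MV4-11 (0.193%, with 0.0828% higher and 0.11% lower in THP-1) and in 111 against Molm-14 (0.766%, with 0.248% higher and 0.518% lower). By themselves, MV4-11 had 784 genes called (5.41%), 3.17% higher and 2.24% lower. Molm-14 had 348 (2.4%), 1.34% higher and 1.06% lower. Of the 13 genes called in THP-1, 4 were called in MV4-11 in the same direction (MPC1, ARRDC4, TXNIP and CPT1A) and 3 in Molm-14 (MPC1, ARRDC4 and S100A8). SCD was called in the opposite direction in MV4-11.

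The MPC1 log2 fold changes were −1.18 (SE 0.097) in MV4-11 and −1.04 (SE 0.093) in Molm-14, and the differences from THP-1, 0.34 (SE 0.13) and 0.2 (SE 0.13), were not called (edgeR FDR 0.421 and 0.809). ARRDC4 fell in all 3 lines, by 1.16 in MV4-11 and 0.61 in Molm-14 on the log2 scale, and its effect in THP-1 was not called different from either (edgeR FDR 0.815 and 0.395). TXNIP fell in MV4-11 (log2 fold change −0.59) but stood at −0.07 in Molm-14, a difference of −0.57 from THP-1 (SE 0.11, edgeR FDR 0.00862). CPT1A had the same pattern, with −0.46 in MV4-11, 0.02 in Molm-14 and a difference of −0.52 from Molm-14 (SE 0.12, edgeR FDR 0.0355).

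The effects on FADS2 and SCD were different in THP-1, while that on FADS1 was not called different from MV4-11 or Molm-14 (edgeR FDR 0.57 and 0.111). The FADS2 log2 fold change was −0.18 in MV4-11 and in Molm-14, and the difference was 0.76 from each (SE 0.13, edgeR FDR 0.00675 and 0.00229). SCD stood at −0.3 in MV4-11 (edgeR FDR 0.042) and −0.27 in Molm-14 (edgeR FDR 0.0923), and the differences were 0.74 and 0.72 (SE 0.12, edgeR FDR 0.00427 and 0.00166). DHCR7 had log2 fold changes of −0.04 and −0.02 in the other lines, but the differences of 0.6 and 0.58 missed the threshold (edgeR FDR 0.13 and 0.06). The ACAT2 effect was not called different from either line (edgeR FDR 0.675 and 0.101). In MV4-11 itself, MSMO1 was called higher (log2 fold change 0.38, edgeR FDR 0.0418). ACAT2 stood at 0.3 and TM7SF2 at −0.31 there, and neither was called (edgeR FDR 0.0832 and 0.234). The median of the sterol list was 0.19 in THP-1, 0.01 in MV4-11 and −0.04 in Molm-14, with no test of the list.

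SAMSN1 rose in THP-1 and stood at −0.39 in MV4-11, a difference of 1.06 (SE 0.2, edgeR FDR 0.0118), and at 0.01 in Molm-14 (edgeR FDR of the difference 0.107). S100A8 rose in Molm-14 by a log2 fold change of 1.08 (edgeR FDR 3.43e-04), and neither difference from THP-1 was called (edgeR FDR 0.674 and 0.558). SERPINB10, IMPDH2 and BMP8B were not called different from either line (edgeR FDR 0.0813 to 0.987), and SERPINB10 stood at a mean of only 1.61 CPM in MV4-11 EV and 0.119 CPM in Molm-14 EV. Of the genes that were not called in THP-1 itself, CTSG fell in Molm-14 (log2 fold change −0.86), a difference of 1.21 from THP-1 (SE 0.13, edgeR FDR 4.33e-06). LYZ rose there by 0.96, a difference of −0.7 (SE 0.15, edgeR FDR 0.0121). TRIB3 fell in MV4-11 (log2 fold change −0.57), a difference of 0.99 (SE 0.18, edgeR FDR 0.0109).

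**Figure D5:**
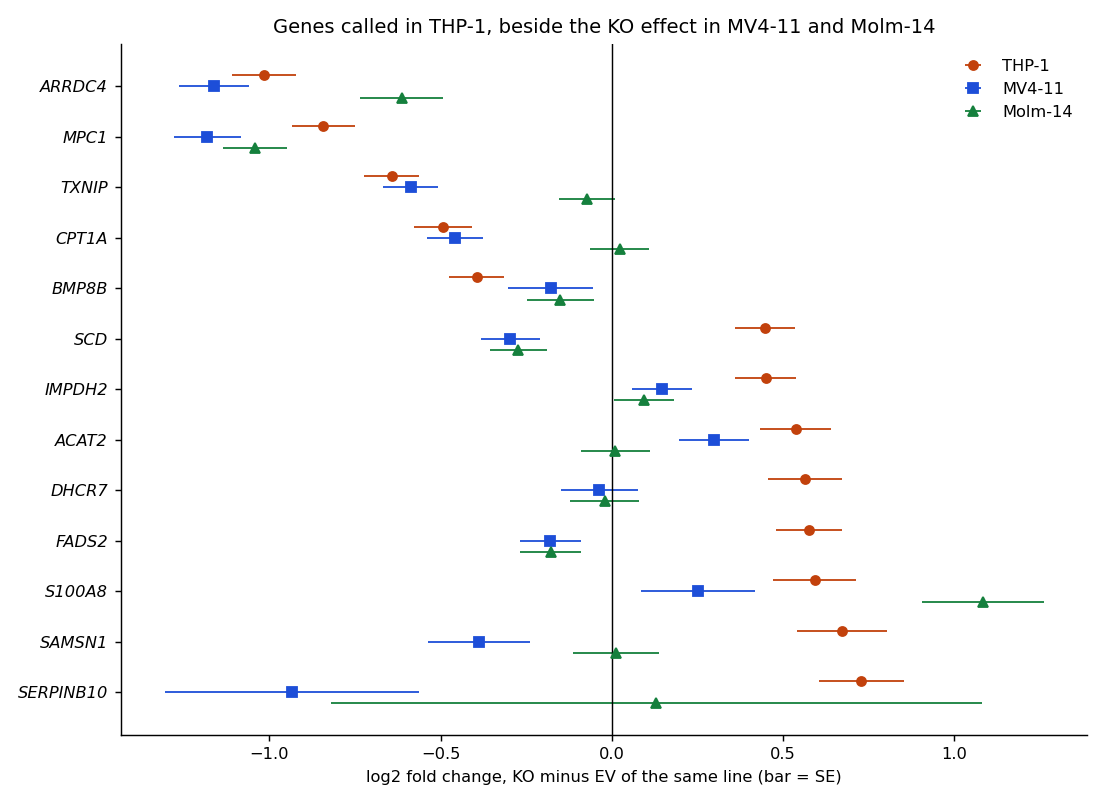
KO effect (x axis, log2 fold change, KO minus EV of the same line, bars = SE) of the 13 genes called in THP-1 (y axis), in THP-1, MV4-11 and Molm-14. MPC1 and ARRDC4 lie below 0 in all 3 lines, and SCD and FADS2 lie above 0 only in THP-1, where the difference from each other line was called.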

How the data were processed

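RNA of the 6 THP-1 libraries was analysed together with the 12 MV4-11 and Molm-14 libraries of the same count table. Per the labels, a stranded total RNA kit with ribosomal depletion was used. The deposited values were raw counts per Ensembl gene: the authors removed optical duplicates, trimmed reads, aligned them in two-pass mode and counted them per gene. The submitters' processing notes name cutadapt 1.16, STAR 2.7.6a, featureCounts 1.6.3, DESeq2 1.30.1 and GRCh38. The strand setting of the counting is not given in the sources used here. The 12 overexpression libraries were not used, and no column lacked a sample. Symbols, positions and exon lengths came from GENCODE release 44 (56948 of 58051 IDs), and promoters from RefSeq (GRCh38.p14).

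After filterByExpr and TMM scaling, the robust quasi-likelihood fit of edgeR 4.0.16 (R 4.3.3) gave each of 6 groups a mean, with Benjamini-Hochberg adjustment over 14490 genes. The SE is the log2 fold change over the root of the test statistic. Genes with an FDR under 5% were called. Alternatives were RLE, upper quartile or no scaling factors, other filters, the 6 libraries alone, DESeq2 1.42.0, leave-outs and the replicate number as a block. Same-numbered THP-1 libraries deviated together, with correlations of 0.385, 0.301 and 0.619 over 9429 genes (EV library 2 also with KO library 1, 0.39), and the labels do not say what the number marks. The fits were also run on simulated counts in which libraries were independent, with no deviation shared by same-numbered libraries. Those runs could not check the block under such a deviation, and their outcome is not given here.

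The genes named are MPC1, MPC2, all called genes, those that the block added above a mean of 100 counts, and members with the smallest p of 31 lists. ACLY, ACACA, FASN, CPT2, SLC25A20, ELANE, AZU1, MPO and the maturation markers were named for their place in a pathway or list, with their values known. Some members of the sterol list are not reported singly here. The members and lists were chosen with earlier results of these data known. Where no read was counted, the upper limit taken was 3 counts (0.399 to 0.544 CPM in a THP-1 library), which covers counting error only.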

Additional observations from a re-analysis of the deposited data

Results flagged for a closer look

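The KO effect differed between THP-1 and another line, by a test of the difference over 14490 genes, in 8 of the genes given above with an FDR. Against MV4-11 the difference in log2 fold change was 0.76 for FADS2 (edgeR FDR 0.00675), 0.74 for SCD (0.00427), 1.06 for SAMSN1 (0.0118) and 0.99 for TRIB3 (0.0109). Against Molm-14 it was 0.76 for FADS2 (0.00229), 0.72 for SCD (0.00166), −0.57 for TXNIP (0.00862), −0.52 for CPT1A (0.0355), 1.21 for CTSG (4.33e-06) and −0.70 for LYZ (0.0121). Among list members with the smallest p that are not described above, PSAT1 differed from MV4-11 by 0.82 (edgeR FDR 0.0118). S100A4 differed from Molm-14 by −0.58 (edgeR FDR 0.0166). Single genes were not examined for 1 library far from its group, since groups held 3 libraries each.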

How the results depend on the processing

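MPC1, ARRDC4 and TXNIP were called under all 16 alternatives. Apart from PSAT1 and S100A4, no gene given above with an FDR changed direction under any alternative in which it was tested. PSAT1, S100A4 and other genes were not followed singly. The MPC1 log2 fold change ran from −0.91 to −0.79. All 13 called genes were called with DESeq2, with no filter beyond 1 count and with either replicate block, and 10 of them lost the call in at least 2 of the 6 fits that left out 1 library, which also had fewer samples. The number of calls depended on the processing. It was 30 genes (18 higher, 12 lower) with no filter beyond 1 count, 26 (15 and 11) with DESeq2, 4 (1 and 3) in the 6 libraries alone and 999 (490 and 509) with the replicate block in the 6 libraries alone. A mean of at least 100 counts left 9 calls, 5 of them higher. Leaving out 1 library gave 3 to 10 calls, 0 to 4 higher and 3 to 6 lower. Without both libraries numbered 3, an alternative chosen after seeing the data, there were 6 calls, 1 higher and 5 lower. The cause was not tested. Genes whose KO effect differed from MV4-11 numbered 80 with no filter beyond 1 count. The medians of the sterol, fatty acid synthesis, ATF4, granule, S100, ribosomal and complex I, III, IV and V lists stayed above 0 and that of the mitochondrially encoded list below 0 under all 16 alternatives. Those of the glycolysis (0.0422 to 0.1153), pyruvate entry (0.0067 to 0.0776) and TCA cycle (0.0048 to 0.0844) lists also stayed above 0. Those of the MondoA, glutamine, fatty acid oxidation, complex II, maturation, NF-kB, interferon, cell cycle, hypoxia, NRF2 and circadian lists, all near 0, changed sign in 1 to 8 of them. With other scaling the median of all genes lay between −0.0122 and 0.0023. At these depths, changes of genes with few counts, such as PDK4 and EGR1, were not resolved. Both were called only with the block in the 6 libraries, and not with the block in the 18 libraries (edgeR FDR 0.133 and 0.127).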
